A study of Homo sapiens with 13 samples.

Results

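Galectins are proteins that bind β-galactoside sugars on glycoproteins, and they were followed here in 2 human small cell lung cancer (SCLC) cell lines treated with FHD-286. The set held 10 of the 56831 genes in the tables, found by symbol: the galectin genes *CLC*, *LGALS13*, *LGALS14*, *LGALS16*, *LGALS1*, *LGALS3*, *LGALS4*, *LGALS8* and *LGALS9*, and *LGALS3BP*, which encodes a glycoprotein that binds galectin-3. *CLC* and *LGALS14* were chosen by their large measured falls in treated H146, so their values there are a description without a test. The other members were included because they belong to the family or bind to it.

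FHD-286 is a small molecule that blocks the ATPase activity of SMARCA4 and SMARCA2, the motor subunits of SWI/SNF chromatin remodelers, and the study asked how this block changes the neuroendocrine state of SCLC. H82 and H146, established SCLC lines labelled WT, were grown in RPMI medium with serum, either without drug (3 libraries of each line) or with FHD-286 at 100 nM for 14 days (3 libraries of H82, 4 of H146). Nothing in the sources used here says whether the libraries of a group came from separate cultures, so *p* values measure the spread between libraries, which may be technical. All values are TPM, which correct reads for gene length and bring each library to the same total.

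Galectins carry no secretion signal, yet they act outside the cell, where they cross-link glycoproteins, as well as in the cytoplasm and nucleus. They come in 3 forms: prototype galectins with a single sugar-binding domain, such as galectin-1, the chimeric galectin-3 with an added tail through which it forms oligomers, and tandem-repeat galectins with linked domains, such as galectin-4, galectin-8 and galectin-9. *CLC* (galectin-10) is the Charcot-Leyden crystal protein of eosinophils and basophils, while *LGALS13*, *LGALS14* and *LGALS16* are known mainly from the placenta, and these prototype genes lie together on chromosome 19.

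The 4 genes of that cluster lie within a short stretch of hg38. *LGALS13* (ENSG00000105198.12, chromosome 19, 39602524 to 39607474), *LGALS16* (ENSG00000249861.4, chromosome 19, 39655913 to 39660647) and *LGALS14* (ENSG00000006659.13, chromosome 19, 39704481 to 39709444) lie on the plus strand. *CLC* (ENSG00000105205.7, chromosome 19, 39731255 to 39738029) lies on the minus strand. The gap to *CLC* is 21811 bp from *LGALS14*, 70608 bp from *LGALS16* and 123781 bp from *LGALS13*.

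The 250 bases before the annotated start of each cluster gene are shown, because the genes differed widely in level and the sequences show how alike their promoters are. They are from RefSeq (GRCh38.p14), 5′ to 3′ on the strand of the gene, at chr19:39738030-39738279 (minus strand) for *CLC*, chr19:39602274-39602523 for *LGALS13*, chr19:39704231-39704480 for *LGALS14* and chr19:39655663-39655912 for *LGALS16* (plus strand). Capitals mark matches to the GATA letters (GATAA, or TTATC on the other strand) and to the E-box letters (CANNTG).
CLC: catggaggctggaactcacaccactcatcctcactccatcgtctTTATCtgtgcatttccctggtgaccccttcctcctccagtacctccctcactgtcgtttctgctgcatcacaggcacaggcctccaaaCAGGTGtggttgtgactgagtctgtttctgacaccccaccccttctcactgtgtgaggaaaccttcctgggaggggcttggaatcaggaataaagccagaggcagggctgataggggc
LGALS13: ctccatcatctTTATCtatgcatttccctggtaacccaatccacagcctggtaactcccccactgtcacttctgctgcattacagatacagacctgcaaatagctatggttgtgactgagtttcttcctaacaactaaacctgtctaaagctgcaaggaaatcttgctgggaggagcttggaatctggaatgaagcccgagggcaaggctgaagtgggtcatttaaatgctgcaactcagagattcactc
LGALS14: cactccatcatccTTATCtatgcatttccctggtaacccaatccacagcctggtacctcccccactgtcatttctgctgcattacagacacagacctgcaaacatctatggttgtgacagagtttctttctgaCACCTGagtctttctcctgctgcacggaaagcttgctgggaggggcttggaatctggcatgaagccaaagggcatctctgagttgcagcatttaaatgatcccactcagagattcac
LGALS16: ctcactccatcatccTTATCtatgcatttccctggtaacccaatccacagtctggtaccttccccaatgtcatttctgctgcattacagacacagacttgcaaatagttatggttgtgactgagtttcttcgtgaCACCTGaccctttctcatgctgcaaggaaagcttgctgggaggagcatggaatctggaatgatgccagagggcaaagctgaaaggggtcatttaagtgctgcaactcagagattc

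The promoters of *LGALS13*, *LGALS14* and *LGALS16* were near copies of each other. Over windows of 300 bases that also take in the start of the transcript, *LGALS13* and *LGALS16* were 87.8% identical, *LGALS14* and *LGALS16* 86.8%, and *LGALS13* and *LGALS14* 84.8%. *CLC* was less like them, at 68.5% with *LGALS16*, 66.7% with *LGALS14* and 65.3% with *LGALS13*. All 4 held the letters TTATC, with the first base at -206 from the start in *CLC*, -237 in *LGALS14*, -235 in *LGALS16* and -239 in *LGALS13*. An E-box match lay at -118 in *CLC* (CAGGTG), -117 in *LGALS14* and -115 in *LGALS16* (CACCTG in both), and none was found in the *LGALS13* window. These letters are common: on either strand, GATAA was found in 22.7% and CANNTG in 68.7% of 35116 promoter windows of the same length. The AP-1 letters TGANTCA (7.7% of windows) and the antioxidant response element core TGACNNNGC (13.3%) were found in none of the 4 windows. The searches allowed overlaps between motifs, and a match is a description of the sequence.

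In untreated H146, *CLC* and *LGALS14* were by far the most abundant galectins. *CLC* was at 138, 128 and 140.0 TPM in the untreated libraries and at 0.865, 0.838, 0.169 and 0.158 TPM in the treated ones. The means were 135 ± 6.42 and 0.508 ± 0.398 TPM (SD, n = 3 and 4), so the untreated mean was 267 times the treated one. *LGALS14* was at 98.9, 105 and 114 TPM without drug and at 0.916, 0.987, 0 and 0.278 TPM with it. Its means were 106 ± 7.70 and 0.545 ± 0.484 TPM, 194 times apart. Both genes were thus strongly expressed in every untreated library and under 1 TPM in every treated one, and treated replicates 1 and 2 kept more of both than replicates 3 and 4. On the log2(TPM + 1) scale the differences were -6.54 for *CLC* and -6.17 for *LGALS14*. This scale understates the change of genes that end near 0, and with 0.1 TPM added instead of 1 the values were -8.08 and -7.87.

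Among 19585 genes tested in H146, ranked from the largest fall, *CLC* was at rank 3 and *LGALS14* at rank 5. *PKD2L1*, a cation channel gene, lay between them at -6.42. Above them were *AKR1C3*, a ketosteroid reductase gene (-7.68), and *GDF15*, a stress-induced cytokine gene (-6.75). Just below came the non-coding *RP11-60A8.1* (-5.86) and *RF00096* (-5.78), and the potassium channel gene *KCNA1* (-5.57). RNA of bulk cells does not show whether fewer cells transcribed a gene or each cell held less of its RNA.

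H82 stood apart from H146 in these genes even without treatment. *LGALS13*, *LGALS14* and *LGALS16* were listed at 0 in all 6 H82 libraries. *CLC* was listed at 0 in the 3 untreated H82 libraries and in treated replicate 2, and was at 1.13 and 0.803 TPM in treated replicates 1 and 3 (exact permutation test of the mean log2 value, two-sided, *p* = 0.4, where 0.1 is the smallest value 3 against 3 libraries can give). The cluster was therefore at the bottom of the scale in H82 in both conditions.

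The other placental galectins of the cluster were far lower than their neighbours in H146. *LGALS13*, placental protein 13, was at 4.07, 2.16 and 4.05 TPM without drug and at 1.39, 1.198, 0.603 and 0 TPM with it. Every treated library was below every untreated one, as for 17.3% of tested genes, and its log2 fold change was -1.34 (standard error, SE, 0.33, adjusted *p* = 0.0110 by limma, and 0.0553 without untreated replicate 3). On its treated libraries alone *LGALS13* would not have passed the filter of 1 TPM in at least 3 libraries, so its high untreated values brought it into the test. *LGALS16* was at 0.426, 0.283 and 0.129 TPM without drug and was listed at 0 in all 4 treated libraries (exact permutation test, two-sided, *p* = 0.0286, the smallest these group sizes allow). It was below the filter of 1 TPM in at least 3 libraries. Reads of *LGALS13*, *LGALS14* and *LGALS16* could be shared between these similar genes, and the counting of such reads was not stated, so the split of reads among them is uncertain.

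**Figure D1:**
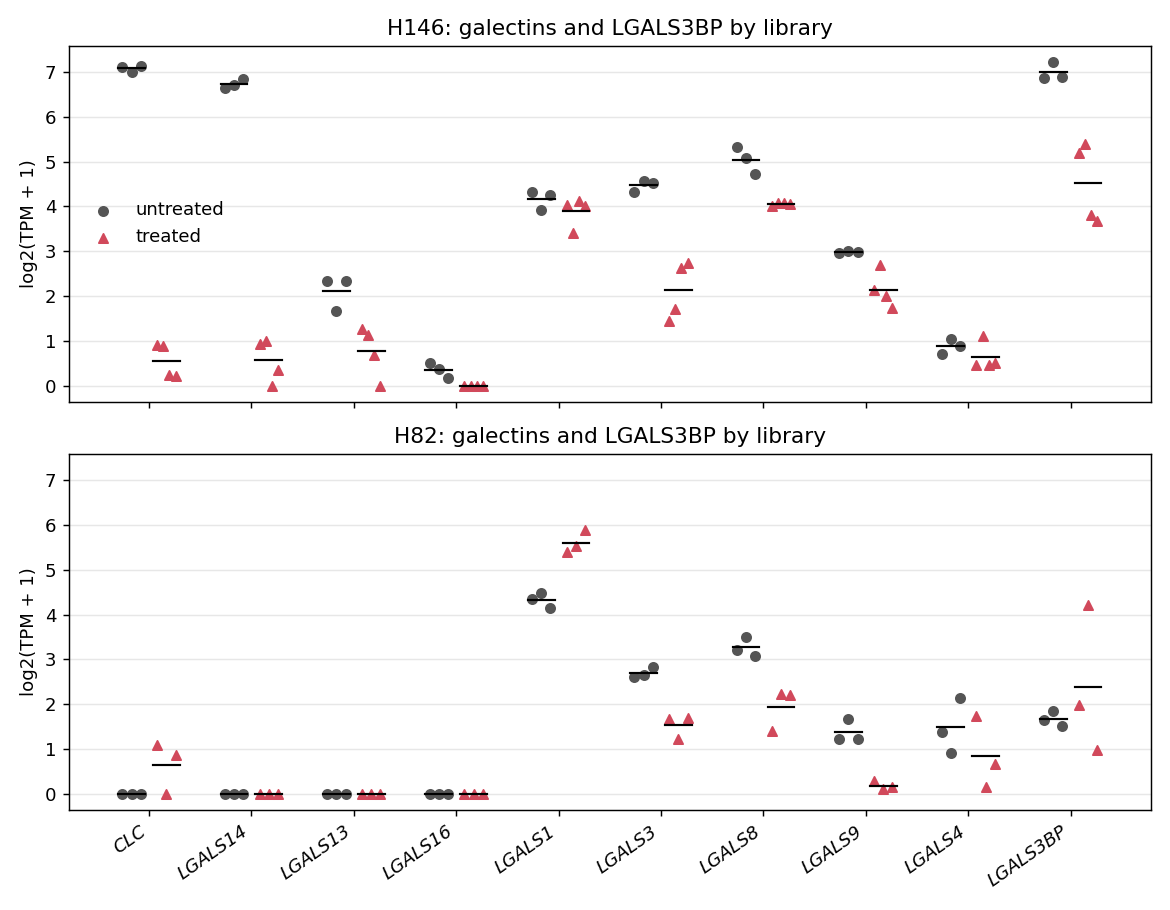
Level of each gene in every library as log2(TPM + 1), with H146 above and H82 below; circles are untreated and triangles treated libraries, and bars are group means. In H146, *CLC* and *LGALS14* were at 98.9 to 140.0 TPM in the untreated libraries and under 1 TPM in the treated ones, while in H82 they were at or near 0 throughout and *LGALS1* was the gene that rose.

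Summed over the 9 galectin genes, without *LGALS3BP*, the untreated H146 libraries held 313 to 332 TPM, of which *CLC* and *LGALS14* made up 72.7% to 76.6%. The treated H146 libraries held 37.5 to 41.6 TPM, of which these genes made up 0.406% to 4.86%. In treated H146 the highest galectin was *LGALS1* in replicates 1 and 3 and *LGALS8* in replicates 2 and 4. H82 went the other way, with 34.9 to 40.1 TPM in the untreated and 48.9 to 65.6 TPM in the treated libraries, and *LGALS1* was the highest in all 6. Because *CLC* and *LGALS14* were picked for their fall, the sum in H146 describes that choice as much as the family.

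**Figure D2:**
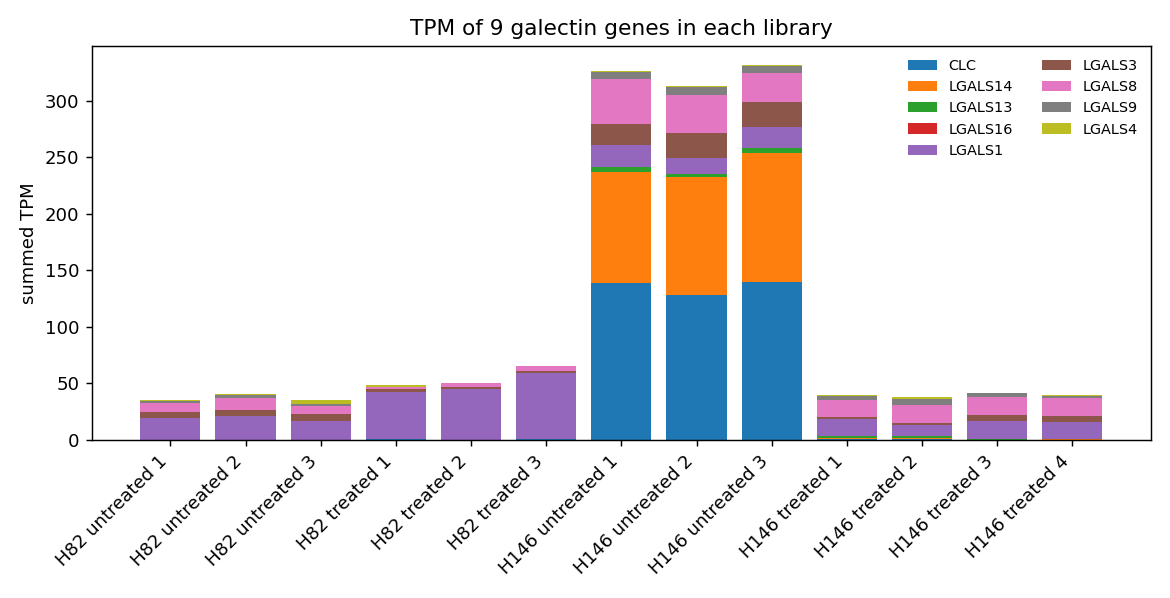
Summed TPM of the 9 galectin genes in each of the 13 libraries, coloured by gene. *CLC* and *LGALS14* fill 72.7% to 76.6% of the bar in untreated H146 and at most 4.86% in treated H146.

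Markers of the cells known for these genes were low in H146 apart from *GCM1*. Of 12 eosinophil and basophil markers, the highest single value was 1.70 TPM without drug (*IL5RA*) and 2.28 TPM with it (*EPX*), and the list summed to 2.70 to 3.81 TPM and 2.57 to 3.26 TPM. Of 16 trophoblast markers, *GCM1*, a transcription factor gene of the syncytiotrophoblast, alone reached 1 TPM. The trophoblast list summed to 12.0 to 13.6 TPM in untreated and 2.24 to 4.93 TPM in treated H146, and *GCM1* itself spanned 9.38 to 10.9 TPM and 1.34 to 3.20 TPM. *GCM1* fell along with *CLC* and *LGALS14* but by less, from a mean of 10.3 to 2.18 TPM, and its part in their levels was not tested. In H82, where the cluster was at or near 0, 5 of the 16 trophoblast markers reached 1 TPM without drug. The list summed there to 7.82 to 10.4 TPM without drug and 0.225 to 0.957 TPM with it. Of 10 neuroendocrine markers, 10 in H82 and 9 in H146 reached 1 TPM in at least 1 library of each condition. In treated H82 the means of *SYP* (202 to 46.8 TPM), *CHGA* (143 to 32.6), *CHGB*, *SCG3* (225 to 28.5) and *NEUROD1* (230 to 83.6) fell. Those of *NCAM1*, *UCHL1* (412 to 896 TPM), *INSM1* (14.4 to 121), *DLL3* and *SCG2* (0.779 to 28.8) rose. In H146 the list summed to 4709 to 5269 TPM without drug and 3122 to 3939 TPM with it.

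Genes around the cluster changed by far less than *CLC* and *LGALS14*. Because those genes were chosen for their large falls, this contrast follows from the choice. Within 300 kb of *CLC*, 40 genes are annotated and 22 were in the tables. Of 11 protein-coding neighbours tested in H146 that are not galectins, 1 was lower and 4 were higher at an adjusted *p* under 0.05 (limma, two-sided), where 15.5% of all tested genes were lower and 32.5% higher. Their median log2 fold change was 0.15, against 0.25 over all genes. *DLL3*, a NOTCH ligand gene, was the lower one, at -0.60 (adjusted *p* = 0.00341 by limma). The higher ones were *TIMM50*, of mitochondrial protein import (0.41), *EID2B* (0.92), the proteasome subunit gene *PSMC4* (0.59) and the zinc finger gene *ZNF546* (0.73). *TIMM50*, *EID2B* and *PSMC4* lost the call when libraries were scaled by the median of ratios, at 0.10, 0.67 and 0.27, and each also lost it with some single libraries left out (limma adjusted *p* of up to 0.0554, 0.121 and 0.112). *ZNF546* lost it only with the replicate number as a block, among the alternatives run (adjusted *p* = 0.0508). *RPS16* (-0.31), *SUPT5H* (0.15), *EID2* (0.01), *DYRK1B* (0.15), *FBL* (-0.02) and *FCGBP* (1.52, adjusted *p* = 0.207) did not pass the test.

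In H82, 10 such neighbours were tested, and 1 was lower and 3 higher, against 45.5% and 13.1% of all tested genes. Their median was 0.21, against -0.56 over all genes. *ZNF546* was lower (-1.84), opposite to its change in H146, and *EID2*, an inhibitor of differentiation gene (1.29), the kinase gene *DYRK1B* (0.68) and *PSMC4* (0.90) were higher. *DYRK1B* and *PSMC4* lost the call without any 1 of the untreated libraries, and without treated replicate 2 or 3 (limma adjusted *p* of up to 0.107 and 0.0951). Nearer to *CLC*, the non-coding galectin relative *LGALS17A*, named after its values were seen, averaged 0.967 ± 0.141 TPM without drug and 0.123 ± 0.122 TPM with it in H146 (SD, n = 3 and 4), below the filter, and was listed at 0 in H82. *LEUTX*, on the other side of *CLC*, was at 0.0855 ± 0.148 and 0.0702 ± 0.0812 TPM in H146.

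**Figure D3:**
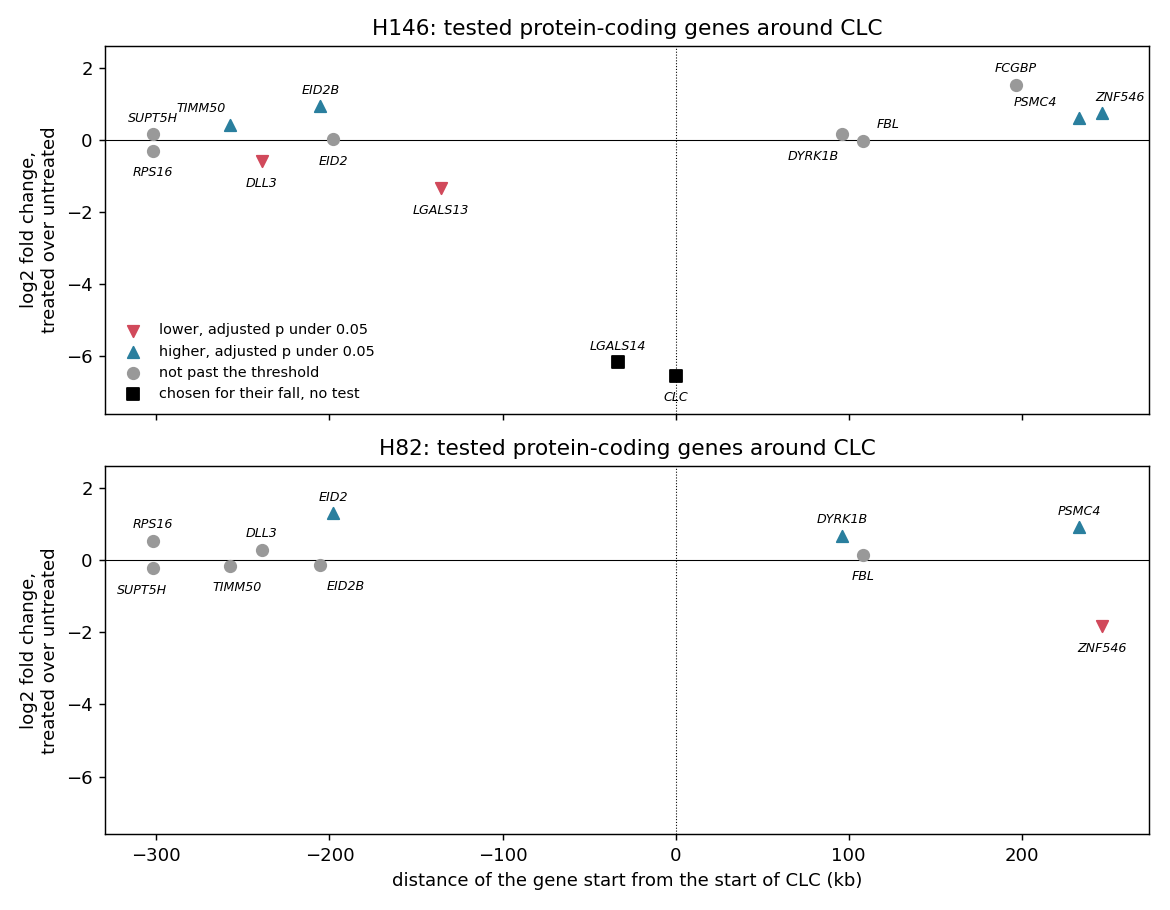
Log2 fold change of the tested protein-coding genes around *CLC* by distance of their start from the start of *CLC*, in H146 above and H82 below. *CLC* and *LGALS14* (squares, chosen for their fall) lie at -6.54 and -6.17 and *LGALS13* at -1.34, while the 11 other neighbours in H146 lie between -0.60 and 1.52.

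Genes whose levels ran most like *CLC* and *LGALS14* were ranked over the 13 libraries, and these correlations describe libraries that share 2 lines and a treatment. For *CLC*, the 5 closest of 24374 genes were *AKR1C3* on chromosome 10 (Pearson *r* = 0.9968 of log2(TPM + 1), 13 libraries), the non-coding *RP11-345L23.1* (0.9951) and *RP11-94A24.1* (0.9919), *LGALS14* (0.9919) and the keratin-associated *KRTAP19-1* on chromosome 21 (0.9917). For *LGALS14* they were *RP11-345L23.1* (0.9978), *KRTAP19-1* (0.9968), *RP11-429A20.3* (0.9968), *AC004485.3* (0.9962) and *PKD2L1* on chromosome 10 (0.9958), and *CLC* was at rank 23. These genes had the same shape: high in untreated H146, low in treated H146 and at most 1.61 TPM in H82. For example, *AKR1C3* went from 519 to 1.82 TPM on average in H146.

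The remaining galectins, most of them expressed in many tissues, were read in both lines, although *LGALS4* was below the filter in H146. Of the 6 members tested in H82, 3 were lower (*LGALS3*, *LGALS8* and *LGALS9*) and 1 was higher (*LGALS1*) at an adjusted *p* under 0.05, where 45.5% of all 19770 tested genes were lower and 13.1% higher. *LGALS9* entered that count only through its untreated H82 libraries, where it was high. Of the 6 tested in H146 apart from *CLC* and *LGALS14*, 5 were lower (*LGALS13*, *LGALS3*, *LGALS3BP*, *LGALS8* and *LGALS9*) and 0 were higher, also at an unadjusted *p* under 0.05, where 15.5% were lower and 32.5% higher. *LGALS13* would not have entered the H146 count on its treated libraries alone. With the filter on a mean TPM above 2, it was not tested and 4 of 5 were lower. Over all tested genes the log2 fold changes had a median of -0.56 in H82 but 0.25 in H146, which sets where the bulk of each line lies. With quantile normalization 0 of the 6 were called lower in H82 and 1 was lower at an unadjusted *p* under 0.05. The count of lower members in H82 thus depended on the scale between libraries, as did the call of *LGALS1* in H146 given below.

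*LGALS1* encodes galectin-1, a secreted prototype galectin that forms dimers and binds integrins and other glycoproteins. In H82 it was at 19.4, 21.5 and 16.6 TPM without drug and at 41.4, 45.1 and 58.3 TPM with it. Every treated library was above every untreated one (a pattern shown by 16.4% of tested genes), and the mean rose from 19.1 ± 2.46 to 48.3 ± 8.86 TPM (SD, n = 3 and 3), and the log2 fold change was 1.28 (SE 0.18, adjusted *p* = 0.00114 by limma). In H146 it was at 18.9, 14.1 and 18.1 TPM without drug and at 15.5, 9.69, 16.3 and 15.1 TPM with it. These groups overlapped, and the log2 fold change was -0.27 (95% interval -0.73 to 0.19, adjusted *p* = 0.30 by limma). With libraries scaled by median of ratios it was -0.57 (adjusted *p* = 0.0380). The lines thus started at a like level, and the difference between their changes was -1.55 in H146 relative to H82 (interaction, adjusted *p* = 0.000511 by limma, where 59.3% of 24374 genes passed). Fibroblasts are rich in galectin-1, and the summed level of 8 fibroblast markers was 3.16 to 3.57 TPM in untreated and 7.98 to 35.6 TPM in treated H82. The highest of them with treatment was *COL1A1*, from 0.141 to 16.7 TPM over the treated libraries, whereas *THY1*, the highest without drug, went the other way, from 1.07 to 1.68 TPM without drug to 0 to 0.194 TPM with it. In H146 the fibroblast sum was 30.6 to 40.04 TPM without drug and 30.995 to 45.02 TPM with it. There the mean of *COL1A2* went from 2.78 to 9.77 TPM and that of *COL3A1* from 0.213 to 7.44 TPM. The mean of *THY1* fell in H146 too, from 26.8 to 12.9 TPM. The part of these markers in the *LGALS1* values of either line was not tested.

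*LGALS3* encodes galectin-3, the chimeric galectin that is also known from lysosome repair and the nucleus, and it fell in both lines. In H146 it was at 19.2, 22.6 and 22.1 TPM without drug and at 1.70, 2.27, 5.19 and 5.64 TPM with it. The groups were far apart, and every treated library lay below every untreated one, as for 17.3% of tested genes. Their means were 21.3 ± 1.84 and 3.70 ± 2.00 TPM (SD, n = 3 and 4), for which the log2 fold change was -2.35 (SE 0.33, adjusted *p* = 0.000775 by limma). Here treated replicates 1 and 2 were lower than replicates 3 and 4, the reverse of their order in *CLC* and *LGALS3BP*. In H82 it was at 5.04, 5.30 and 6.15 TPM without drug and at 2.19, 1.33 and 2.23 TPM with it, again without overlap (as for 51.4% of tested genes), so its log2 fold change was -1.17 (SE 0.22, adjusted *p* = 0.00336 by limma). Relative to the median of all genes the H82 change was -0.61, and with quantile normalization it was -0.18 (adjusted *p* = 0.520). The fall in H146 was larger than that in H82 by 1.18 on the log2 scale, with a difference of -1.18 (interaction, adjusted *p* = 0.0300 by limma, but 0.0906 with 0.1 TPM added and up to 0.0621 without any 1 of 6 libraries).

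Macrophages are known for galectin-3 and galectin-9, and the summed level of 8 macrophage markers was 17.2 to 23.1 TPM in untreated and 2.55 to 7.001 TPM in treated H82. In H146 it moved the other way, from 15.3 to 20.5 TPM without drug to 21.1 to 49.3 TPM with it, while *LGALS3* and *LGALS9* fell. The H82 sum fell mostly through *CSF1R*, which averaged 16.8 TPM without drug and 1.23 TPM with it, while *CD14* averaged 2.01 and 2.90 TPM. In treated H146 the highest of the list was *TYROBP*, at up to 20.2 TPM. The part of these markers in the galectin values was not tested.

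*LGALS3BP*, the scavenger-receptor domain glycoprotein that binds galectin-3, was far more abundant in H146 than in H82. It was at 116, 149 and 119 TPM in untreated H146 and at 35.5, 41.2, 13.05 and 11.9 TPM in treated H146. All treated libraries lay below the untreated ones, as for 17.3% of tested genes. The mean fell from 128 ± 18.1 to 25.4 ± 15.1 TPM (SD, n = 3 and 4), and the log2 fold change was -2.48 (SE 0.43, adjusted *p* = 0.00212 by limma). Treated replicates 1 and 2 were higher than replicates 3 and 4, and the log2 fold change was -1.71 without replicates 3 and 4 and -3.25 without replicates 1 and 2, a comparison added after the data were seen. In H82 it was at 2.14, 2.605 and 1.83 TPM without drug and at 2.97, 17.5 and 0.961 TPM with it. Only treated replicate 2 was clearly higher, and the log2 fold change of 0.72 (95% interval -1.05 to 2.49, adjusted *p* = 0.435 by limma) became -0.19 without that library (adjusted *p* = 0.681).

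That H82 library stood apart in genes of the other line. Of 123 genes at 10 TPM or more in every H146 library and under 0.1 TPM in every untreated H82 library, 52 reached 1 TPM in treated H82 replicate 2, against 16 and 10 in treated replicates 1 and 3. They summed to 434 TPM there, or 5.37% of their mean sum in treated H146, against 0.965% and 0.459% in the other treated H82 libraries. *LGALS3BP* in that library was at 68.9% of its treated H146 mean and 13.7% of its untreated H146 mean. *CLC* and *LGALS14* were listed at 0 there. The source of these reads was not tested. The change of *LGALS3BP* differed between the lines by -3.20 (interaction, adjusted *p* = 0.00967 by limma), and by -2.29 (adjusted *p* = 0.0100) without that library.

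Of the tandem-repeat galectins, *LGALS8* and *LGALS9* were called lower in both lines. *LGALS8*, whose product marks damaged endosomes for autophagy, was at 39.2, 32.9 and 25.7 TPM in untreated and at 15.2, 15.9, 16.0 and 15.7 TPM in treated H146. The treated libraries were within 1 TPM of each other. All lay below the untreated ones, as for 17.3% of tested genes, with a log2 fold change of -0.99 (SE 0.15, adjusted *p* = 0.00136 by limma). In H82 *LGALS8* was at 8.29, 10.3 and 7.46 TPM without drug and at 1.62, 3.69 and 3.57 TPM with it, a log2 fold change of -1.33 (SE 0.28, adjusted *p* = 0.00593 by limma, but -0.46 and 0.237 with quantile normalization).

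*LGALS9*, a galectin that modulates T cells, was at 6.84, 7.05 and 6.92 TPM in untreated and at 3.36, 5.48, 2.98 and 2.33 TPM in treated H146. Every treated library was below every untreated one, as for 17.3% of tested genes, and the log2 fold change was -0.85 (SE 0.23, adjusted *p* = 0.0160 by limma). That call was lost, at an adjusted *p* of 0.0528 to 0.0549, without any 1 of the untreated libraries. Over all fits with libraries left out, pairs of treated replicates included, the log2 fold change ranged from -1.12 to -0.58 (limma adjusted *p* of up to 0.0628). In H82 *LGALS9* was at 1.34, 2.18 and 1.33 TPM without drug and at 0.209, 0.0729 and 0.112 TPM with it. It passed the filter only through the untreated libraries, and its means of 1.62 ± 0.488 and 0.131 ± 0.0702 TPM (SD, n = 3 and 3) were 12.3 times apart, although the log2 fold change after adding 1 TPM was -1.20 (adjusted *p* = 0.00237 by limma, and -0.48 with 0.0710 under quantile normalization).

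*LGALS4*, a galectin of the gut epithelium, was low in both lines. In H82 it was at 1.60, 0.882 and 3.41 TPM without drug and at 2.30, 0.105 and 0.579 TPM with it. The groups overlapped, with a log2 fold change of -0.63 (95% interval -1.76 to 0.49, adjusted *p* = 0.287 by limma). In H146 it was at 0.620, 1.05 and 0.858 TPM without drug and at 0.374, 1.17, 0.365 and 0.416 TPM with it, below the filter (exact permutation test, two-sided, *p* = 0.257).

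The changes of *LGALS4*, *LGALS8* and *LGALS9* were not shown to differ between the lines. Their interaction terms were 0.39 (95% interval -0.76 to 1.53, adjusted *p* = 0.542 by limma), 0.34 (-0.33 to 1.01, adjusted *p* = 0.361) and 0.34 (-0.34 to 1.03, adjusted *p* = 0.363). For *LGALS9* the difference depended on the value added before the logarithm, and it was 1.88 (adjusted *p* = 0.00642) with 0.1 TPM. For *LGALS13* the interaction of -1.34 (adjusted *p* = 0.0113, and 0.0731 with 0.1 TPM) reflects the H146 change alone, because H82 was listed at 0 throughout.

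**Figure D4:**
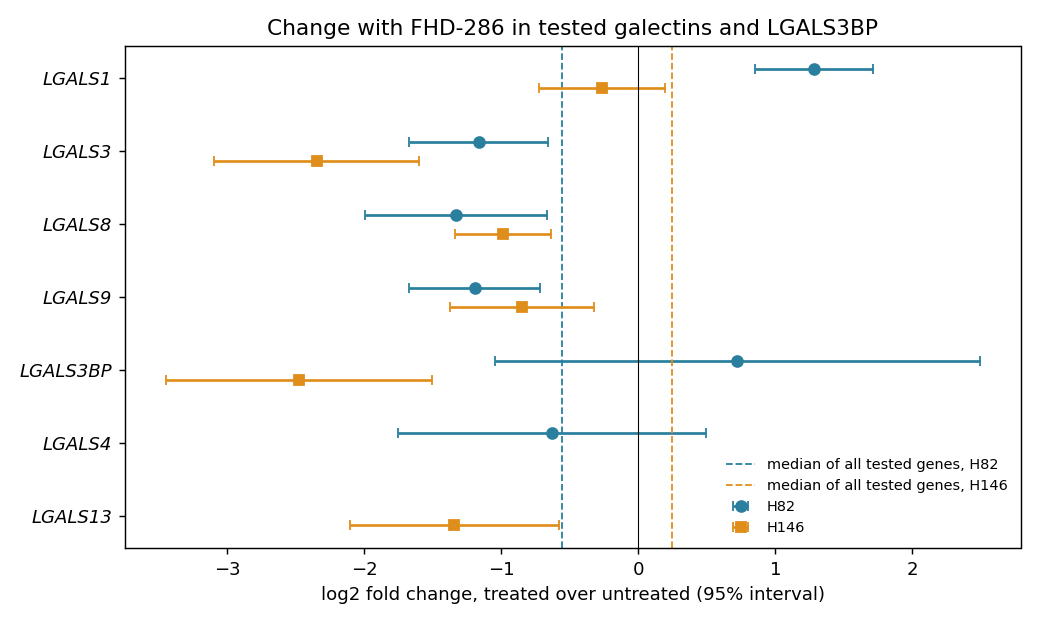
Log2 fold change of the tested genes apart from *CLC* and *LGALS14* (treated over untreated, points) with 95% intervals (bars) in H82 and H146; dashed lines mark the median of all tested genes in each line, -0.56 and 0.25. *LGALS3*, *LGALS8* and *LGALS9* lie below 0 in both lines, and *LGALS1* lies at 1.28 in H82 and -0.27 in H146.

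In order of mean level, untreated H146 held *CLC* (135 TPM), *LGALS3BP* (128), *LGALS14* (106), *LGALS8* (32.6), *LGALS3* (21.3), *LGALS1* (17.04), *LGALS9* (6.94), *LGALS13* (3.43), *LGALS4* (0.843) and *LGALS16* (0.279). The single values of *CLC* and *LGALS3BP* overlapped. The lowest *LGALS3BP* library (116 TPM) was just above the highest *LGALS14* library (114 TPM), and the lowest *LGALS3* library (19.2 TPM) just above the highest *LGALS1* library (18.9 TPM). Untreated H82 held *LGALS1* (19.1 TPM), *LGALS8* (8.69), *LGALS3* (5.50), *LGALS3BP* (2.19), *LGALS4* (1.96) and *LGALS9* (1.62), followed by the cluster genes at 0. The last 3 of the expressed genes overlapped in their single values.

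Other genes with a galectin fold were scarce in these lines. Of 8 such genes, 1 was tested in H82 and 2 in H146. *LGALS7B* was lower in H146, at 6.56 ± 1.34 and 1.58 ± 1.25 TPM (SD, n = 3 and 4), for which the log2 fold change was -1.68 (adjusted *p* = 0.00901 by limma), although its near-identical copy *LGALS7* makes the assignment of its reads uncertain. *LGALSL*, a galectin-like gene without sugar binding, was tested in both lines and did not pass the test, at 0.54 in H82 (adjusted *p* = 0.0547, but called higher at 0.99 under the median of ratios, at 1.22 under quantile normalization and with the filter on a mean TPM above 2) and 0.22 in H146 (adjusted *p* = 0.210).

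Enzymes that build, extend or cap the glycans galectins bind moved in both directions. In H146, 18 of 23 were tested, and 4 were lower and 7 higher, where 15.5% of all tested genes were lower and 32.5% higher. Their median log2 change was 0.30, against 0.25 over all genes. *ST6GAL1* entered the higher count only through the treated libraries, where it was high (means of 0.516 TPM without drug and 1.96 TPM with it). *FUT8*, which adds core fucose, rose most (1.75, adjusted *p* = 4.98e-05 by limma), and the branching enzyme gene *MGAT4B* fell most, from 178 ± 5.16 to 57.5 ± 1.43 TPM (SD, n = 3 and 4, log2 fold change -1.61, adjusted *p* = 1.31e-05 by limma). In H82, 20 were tested, and 3 were lower and 2 higher, where 45.5% of all tested genes were lower and 13.1% higher. Their median was -0.0007 against -0.56, and 9 were higher when scaled by the median of ratios. *ST3GAL3* entered the lower count only through the untreated libraries, where it was high (means of 1.53 TPM without drug and 0.242 TPM with it). *GCNT1*, which makes core 2 branches, had the largest rise there (1.35, adjusted *p* = 0.00801 by limma), although it passed the filter only through the treated libraries where it was high, and *B3GNT8*, which extends poly-N-acetyllactosamine chains, fell most (-1.82, adjusted *p* = 0.00522, but -0.89 and 0.0850 under quantile normalization). *B3GNT8* would not have passed the filter on its treated libraries alone (means of 5.13 TPM without drug and 0.687 TPM with it).

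Glycoproteins and intracellular partners known to bind galectins were likewise mixed. In H146, 18 of 20 were tested, and 3 were lower and 6 higher, where 15.5% of all tested genes were lower and 32.5% higher. Their median was 0.15 against 0.25, while the median of ratios gave 5 lower and 3 higher. *ITGA5* entered the higher count only through the treated libraries, where it was high (means of 0.556 TPM without drug and 1.81 TPM with it). *MCAM*, a cell adhesion glycoprotein bound by galectin-1 and galectin-3, fell most, from 56.5 ± 6.46 to 4.66 ± 1.17 TPM (SD, n = 3 and 4, log2 fold change -3.36, adjusted *p* = 8.33e-06 by limma), and *GEMIN4*, a nuclear partner in splicing, rose most (1.06, adjusted *p* = 0.01997, but 0.0670 without untreated replicate 1, 0.0782 without untreated replicate 3, and 0.0549 at a log2 fold change of 0.76 under the median of ratios). In H82, 15 were tested, and 4 were lower and 1 higher, where 45.5% of all tested genes were lower and 13.1% higher. Their median was -0.11 against -0.56, while the median of ratios gave 1 lower and 5 higher. *MUC1*, the membrane mucin, fell most (-1.15, adjusted *p* = 0.00965, but -0.16 and 0.681 under quantile normalization) and *ALCAM*, an adhesion molecule, rose (0.98, adjusted *p* = 0.0309). *MUC1* would not have passed the filter on its treated libraries alone (means of 3.10 TPM without drug and 0.916 TPM with it). These 5 calls in H82 were all lost in limma when any 1 of the untreated libraries was left out, and *ALCAM* also lost its call without treated replicate 1 or 2.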

How the data were processed

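RNA-seq tables of 13 libraries were analysed: H82 untreated (3), H82 treated (3), H146 untreated (3) and H146 treated (4), grouped by the line and treatment in the labels. The authors aligned reads to hg38, obtained gene counts from STAR with a GENCODE annotation, and compared groups with DESeq2. Trim Galore 0.4.4 is named in the submitters' processing notes. The deposited values are TPM made by the authors, with each column summing to 1000000. TPM hold no read depth, so no interval or limit from counts is given, and how gene length was taken is not given in the sources used here. Each line has its own table of 56831 genes.

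Models were fitted per line in R 4.3.3 using limma 3.58.1 (lmFit, eBayes with trend) and log2(TPM + 1) values. Genes reaching 1 TPM in 3 or more libraries of the line entered the fit. Two-sided *p* values were adjusted by Benjamini-Hochberg across every gene in the fit, and 0.05 was the threshold. The difference between lines was the interaction of line and treatment over all 13 libraries, so levels set across the lines compare separate tables of TPM. For members below this filter an exact permutation test was used. In H146, 8 of 10 members passed the filter, and in H82, 6 of 10. *CLC* and *LGALS14* were not tested in H146, since their falls there chose them. Fold changes are on the log2(TPM + 1) scale and understate changes of low genes.

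The members, lists, motifs and tests were chosen with earlier results of these data known. Genes named besides the members are the largest rise and fall past the threshold in each list, the protein-coding genes within 300 kb of *CLC* tested in H146, and the 5 genes most correlated with *CLC* or *LGALS14*. *ST6GAL1*, *ST3GAL3* and *ITGA5* are named because they passed the filter only through the group where they were high. Coordinates and identifiers were matched by symbol to GENCODE release 44 (hg38), and promoters were taken from a RefSeq table (GRCh38.p14) with 9 of 10 members matched.

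Alternatives were a pseudocount of 0.1, no filter, a mean TPM above 2, scaling by the median of ratios, quantile normalization, eBayes without trend, the replicate number as a block, and each library left out. Leaving out treated H146 replicates 1 and 2, or 3 and 4, was added after the data were seen. The fit was tested on simulated data, in which 93 of 200 changed genes were called in H82 and 135 of 200 in H146. Far fewer genes changed there than were called in the data, so these shares do not measure the sensitivity of the real fits. A gene that did not pass may still have changed. Python 3.11.15, numpy 2.4.6, pandas 2.3.3 and matplotlib 3.10.9 were used. Results of the study that concern other genes were not analysed here.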

Additional observations from a re-analysis of the deposited data

Results flagged for a closer look

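Among the 4 treated H146 libraries, replicate 2 held *LGALS4* at 1.17 TPM, far from the other three, which lay between 0.365 and 0.416 TPM. How often such a gap arises by chance was not tested, and it was picked out from several members and groups. The gene was below the filter in H146.

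The change with FHD-286 differed between the lines for *LGALS1*, *LGALS3* and *LGALS3BP* (interaction in limma, adjusted *p* under 0.05, as for 59.3% of all genes tested). The log2 fold change in H146 minus that in H82 was -1.55 for *LGALS1*, which rose in H82 and was not past the threshold in H146. For *LGALS3*, which fell in both lines, it was -1.18, and its call was lost with 0.1 TPM added (adjusted *p* = 0.0906). For *LGALS3BP* it was -3.20, or -2.29 without treated H82 replicate 2. *LGALS13* was listed at 0 in every H82 library, so its value of -1.34 restates the H146 change and is no comparison of lines, and it too was lost with 0.1 TPM added (adjusted *p* = 0.0731).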

How the results depend on the processing

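The scale between libraries moved most counts. Under the median of ratios, 4793 genes were higher in H82, and in H146 4917 were lower and 4167 higher. Under quantile normalization, 5547 genes were lower and 5067 higher in H82, and 0 of the tested members were lower there (1 at an unadjusted *p* under 0.05, limma). The median of all genes became -0.14 in H82 and -0.02 in H146 under the median of ratios, and lower genes then made up 57.6% of all calls in H82 (77.7% without that scaling) and 54.1% in H146 (32.3% without it). With 1 library left out, lower genes numbered 4291 to 9957 in H82 and 1812 to 3729 in H146, and higher ones 1676 to 3503 in H82. In H146, 3 to 5 of the 6 tested members were then lower, with 3 without untreated replicate 3. The cause was not tested. *LGALS16* cannot pass the exact test with 1 library fewer.

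Signs turned for genes near 0. *LGALS4* in H82 was 0.19 under quantile normalization, and *LGALS3BP* in H82 ranged from -0.19 to 1.43 with 1 library left out. In H146, the median of ratios gave -0.31 for *EID2*, -0.17 for *DYRK1B* and -0.17 for *SUPT5H*, quantile normalization gave -0.085 for *EID2* and 0.13 for *FBL*, and 1 library left out gave -0.18 to 0.28 for *EID2* and -0.12 to 0.13 for *FBL*. The interaction terms under the median of ratios were -0.36 for *LGALS8* and -0.050 for *LGALS9*, and under quantile normalization -0.65 for *LGALS4*, -0.71 for *LGALS8* and -0.58 for *LGALS9*. The *LGALS3* interaction lost its call without any 1 of 6 libraries, at an adjusted *p* of up to 0.0621.

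Replicate numbers did not pair the samples (correlations of deviations of -0.038 to 0.027 in H82 and -0.111 to 0.011 in H146). With the replicate block, lower genes numbered 8625 (H82) and 2377 (H146) and higher ones 2333 and 4749, with -0.18 for *EID2*, lost calls in H146 for *TIMM50* (0.38, adjusted *p* = 0.104), *PSMC4* (0.49, 0.0997) and *ZNF546* (0.74, 0.0508), and -0.72 for *LGALS9* in H146 (limma adjusted *p* = 0.0579), and 4 members lower there.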
